A study of Danio rerio with 6 samples.

Results

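The embryonic globin genes are a group of 9 genes, hbae1.1, hbae1.3, hbae3 and hbae5 of the alpha type and hbbe1.1, hbbe1.2, hbbe1.3, hbbe2 and hbbe3 of the beta type. They were found by symbol in a table of 21392 genes, and all 9 were present. The genes were chosen by the translation efficiency in all 4 libraries, for moving apart between the genotypes, so the genotype differences below are descriptions and carry no test. The study compared mycn mutant zebrafish embryos with AB-strain wild-type embryos, both at 72 h after fertilization, and its title links mycn to intestinal development and ribosome biogenesis in a model of Feingold syndrome 1. Ribo-seq, a method that reads the pieces of mRNA covered by ribosomes after nuclease digestion, covered 2 mutant and 2 wild-type samples, and RNA-seq covered 1 mutant and 1 wild-type sample. The value analysed is the translation efficiency, the ratio of a gene's footprint FPKM to its mRNA FPKM (FPKM is a read density scaled for transcript length and sequencing depth), so it has no unit and is already corrected for gene length. The labels name the mutants by the gene alone, without allele, zygosity or strain background, and do not say whether embryos of separate clutches or pools made up the replicates.

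Hemoglobin carries oxygen in red blood cells and is built of paired alpha-type and beta-type chains around heme. Zebrafish, like mammals, use different globin genes in the embryo and the adult, and the primitive red cells that circulate in the embryo are filled with the embryonic chains. Fish keep alpha-type and beta-type genes side by side in mixed clusters, and several embryonic genes are recent duplicates of each other. Globin mRNA is among the most abundant of an embryo that has blood, and its translation depends on heme.

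The ratios were relative to the other genes of a library. The median over all genes was 0.752 and 0.736 in the mutant libraries, against 0.746 and 0.734 in the wild-type libraries, and between 5.86% and 9.98% of genes were listed at 0. The depth behind each ratio is unknown. The abundances of footprints and of mRNA were not analysed here, and a higher ratio can stand for more footprints or for less mRNA. Each genotype had 1 RNA-seq sample. Where that sample was the denominator, an error in the mRNA value of a gene would shift both libraries of the genotype together. Such an error would not appear in the spread between them, for globins or for any other gene. In these bulk samples the ratio gives neither the number of red cells nor the amount of globin RNA per cell. The gene mycn itself was at 0.429 and 0.342 in mutants, against 0.446 and 0.302 in wild type, and a ratio does not check the genotype, since it does not give the amount of mRNA.

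In mycn mutants 3 embryonic globin genes had higher translation efficiency, hbbe1.1, hbae1.1 and hbae1.3, and 6 had lower translation efficiency. The highest and lowest ratios of the genotype means were 12.6 for hbbe1.1 and 0.0396 for hbbe3, both of the beta type. In every library the value of hbbe3 recurred in other genes, which is taken below to come from small read numbers. No value of hbbe1.1 did so. For each of the 9 genes the mutant libraries did not overlap the wild-type libraries. Among all 17601 genes above 0 in every library, 23.1% had mutant libraries above the wild-type libraries without overlap and 21.6% had them below, and nothing is read from the count of globins because the genes were chosen for this contrast.

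Of the alpha-type chains, hbae1.1 had the highest translation efficiency of the 9 genes in every library. Its translation efficiency was 66.2 and 90.1 in mutants, against 16.2 and 13.7 in wild type. Both mutant libraries were thus at least 4.08 times the higher wild-type library, with means of 78.1 ± 16.9 in mutants and 15.0 ± 1.79 in wild type (SD, n = 2 each). The duplicate hbae1.3 had lower values, at 3.05 and 4.15 in mutants and 2.14 and 1.33 in wild type. The groups of hbae1.3 lay closer together, with the lower mutant library 1.42 times the higher wild-type library. Its log2 fold was 1.03 with all libraries, on the log2(ratio + 0.1) scale used throughout, 0.70 without wild-type replicate 2 and 1.35 without wild-type replicate 1.

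The remaining alpha-type genes were lower in mutants. For hbae3 the values were 0.727 and 0.718 in mutants, against 1.54 and 1.42 in wild type. These were among the closest replicates of the set, and the mean in mutants, 0.723 ± 0.00622, was 0.489 of that in wild type, 1.48 ± 0.0868 (SD, n = 2 each). For hbae5 they were 0.587 and 1.92 in mutants, against 4.42 and 7.20 in wild type. The mutant libraries of hbae5 differed from each other by 3.28-fold, the widest replicate spread of the 9 genes. Its log2 fold was -2.29 with all libraries, -1.51 without mutant replicate 1 and -3.07 without mutant replicate 2. The size of the difference thus rested on which mutant library was used. Its direction could not change, because both mutant libraries lay below both wild-type libraries.

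Of the beta-type chains, hbbe1.1 had the lowest translation efficiency of the 9 genes in both wild-type libraries and ranked next to hbae1.1 in both mutant libraries. It was at 7.64 and 7.90 in mutants, against 0.565 and 0.669 in wild type. The means were 7.77 ± 0.189 in mutants and 0.617 ± 0.0731 in wild type (SD, n = 2 each). The nearest libraries of the genotypes were 11.4-fold apart, and replicates differed by 1.03-fold in mutants and 1.18-fold in wild type. Close replicates are no check on the mRNA value, where both libraries of a genotype had the same RNA-seq denominator. The duplicates of hbbe1.1 differed the other way. The translation efficiency of hbbe1.2 was 0.505 and 0.438 in mutants, against 0.788 and 0.776 in wild type, a ratio of the means of 0.603. That of hbbe1.3 was 1.06 and 0.970 in mutants, against 1.42 and 1.47 in wild type, a ratio of the means of 0.705. Among these 3 near-identically named copies only hbbe1.1 was thus higher in mutants.

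The other beta-type genes, hbbe2 and hbbe3, were lower in mutants. For hbbe2 the values were 0.779 and 1.18 in mutants, against 1.87 and 1.37 in wild type. The nearest libraries of the genotypes were 1.16-fold apart, the narrowest gap of the 9 genes and smaller than the 1.52-fold and 1.37-fold differences between its replicates. Its log2 fold was -0.68, and -0.41 without mutant replicate 1, -0.95 without mutant replicate 2, -0.47 without wild-type replicate 1 and -0.89 without wild-type replicate 2. For hbbe3 the values were 0.408 and 0.334 in mutants, against 12.2 and 6.60 in wild type. Each of these values recurred in other genes of its library. With means of 0.371 ± 0.0522 in mutants and 9.39 ± 3.93 in wild type (SD, n = 2 each), hbbe3 was the lowest of the 9 genes in both mutant libraries, whereas in wild type it stood second by its mean.

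**Figure D1:**
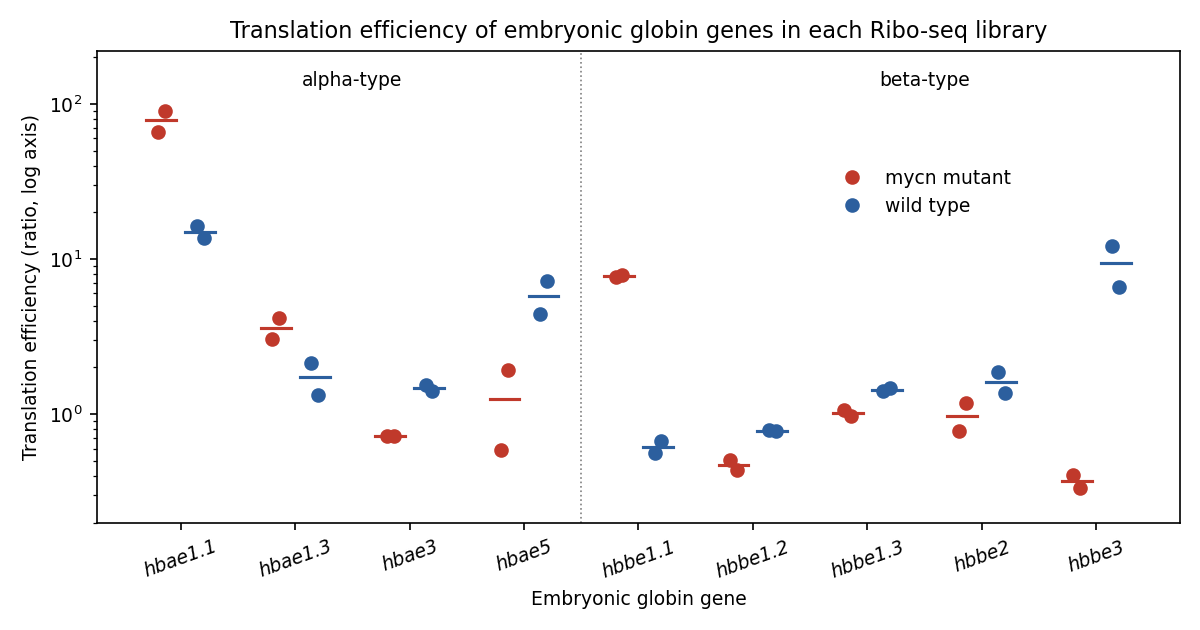
Translation efficiency of the 9 embryonic globin genes in each Ribo-seq library, on a log axis. Points are the 2 libraries of each genotype and bars their means, with mycn mutants at the left of each pair. The genes hbbe1.1 and hbbe3 exchange places between the genotypes, with mutant means of 7.77 and 0.371 and wild-type means of 0.617 and 9.39. Every value of hbbe3 recurred in other genes of its library.

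The order of the levels differed between the genotypes. In mutants hbae1.1, hbbe1.1 and hbae1.3 led, each with both libraries above those of the next gene, followed by hbae5, hbbe1.3 and hbbe2, whose neighbours overlapped, and then by hbae3, hbbe1.2 and hbbe3. In wild type hbae1.1 led, hbbe3 and hbae5 followed with overlapping libraries, then came hbae1.3, hbbe2, hbae3 and hbbe1.3, whose neighbours overlapped too, and hbbe1.2 and hbbe1.1 stood last. The distance between the highest and the lowest of the 9 genes was 162-fold and 269-fold in the mutant libraries, against 28.7-fold and 20.5-fold in the wild-type libraries.

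Set against the other genes of the same library, hbae1.1 exceeded 99.7% and 99.8% of genes in the mutant libraries, and 99.1% of genes in each wild-type library. The shift of hbbe1.1 was wide on this scale, since it exceeded 97.8% and 97.9% of genes in mutants, against 33.6% and 44.2% in wild type. In the other direction, hbbe3 exceeded 20.3% and 18.1% of genes in mutants, against 98.8% and 97.3% in wild type. The translation efficiency of hbbe1.2 changed places less, exceeding 28.2% and 24.9% of genes in mutants, against 53.6% and 53.3% in wild type. Of the 9 genes, 5 and 6 lay above the library's median in mutants, against 8 in each wild-type library.

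Ratios between globins of the same library do not depend on how a library was scaled. The ratio of hbbe1.1 to its duplicate hbbe1.2 was 15.1 and 18.02 in mutants, against 0.718 and 0.861 in wild type, so hbbe1.1 was the higher of the pair in both mutant libraries and the lower in both wild-type libraries. The ratio of hbae1.1 to its duplicate hbae1.3 was 21.7 in both mutant libraries, against 7.57 and 10.3 in wild type. For hbbe1.1 over hbbe3, the ratio was 18.7 and 23.6 in mutants, against 0.0465 and 0.101 in wild type. The ratio of hbae3 to hbbe1.2, which were both lower in mutants, lay closer between the genotypes, at 1.44 and 1.64 in mutants and 1.95 and 1.82 in wild type.

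The 9 genes belong to a larger and a smaller globin cluster. By the order of protein-coding genes in RefSeq (assembly GRCz12tu, used here for names and neighbours only), the larger cluster runs from hbaa2 to hbae3 and holds 13 globin genes, of which 6 were in the table, all of them among the 9 embryonic genes. In this cluster hbbe1.1 and its neighbour hbae1.1 were higher in mutants, the next genes hbbe1.2 and hbbe1.3 lower, hbae1.3 higher and hbae3 lower, so 3 were higher and 3 lower. The adult-type genes hbaa1 and hbba1, and the embryonic hbae1.2, were not analysed here. The smaller cluster holds 4 globin genes, hbae4, hbbe3, hbbe2 and hbae5, and the 3 that belong to the chosen genes were lower in mutants. The fourth, hbae4, is listed in the table under its older name zgc:163057 and was not among the chosen genes. It was at 1.42 and 2.80 in mutants, against 1.33 and 1.201 in wild type, and it did not pass (limma adjusted p = 0.592; log2 fold 0.62).

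Genes flanking the clusters gave values of their own. Beside the larger cluster, nprl3, a subunit of an inhibitor of mTORC1 signalling whose introns hold the major alpha-globin enhancer in mammals, was at 0.650 and 0.373 in mutants, against 1.02 and 0.819 in wild type (log2 fold -0.77, limma adjusted p = 0.473). On the other side, kank2, a regulator of actin and cell adhesion, was at 2.19 and 2.20 in mutants, against 2.03 and 2.25 in wild type. Beside the smaller cluster, the aquaporin gene aqp8a.2 was at 2.92 and 3.08 in mutants, against 0.826 and 1.42 in wild type (log2 fold 1.39, limma adjusted p = 0.321), and its neighbour aqp8a.1 was at 0.384 and 0.405 in mutants, against 0.331 and 0.598 in wild type. The list of neighbours, drawn up from genes that lie beside globin clusters in fish or mammals, had 6 of 15 tested genes higher and 9 lower in mutants, and none passed. Of its members that are not next to either cluster in RefSeq, mrpl28, a mitochondrial ribosomal protein, was at 75.1 and 64.3 in mutants, against 98.4 and 89.9 in wild type (log2 fold -0.44, limma adjusted p = 0.466). The GTPase regulator arhgap17b was at 1.54 and 1.26 in mutants, against 0.947 and 0.923 in wild type (log2 fold 0.53, limma adjusted p = 0.466). The median of the list was -0.15, and it was -0.041 without wild-type replicate 2 and -0.32 without wild-type replicate 1.

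**Figure D2:**
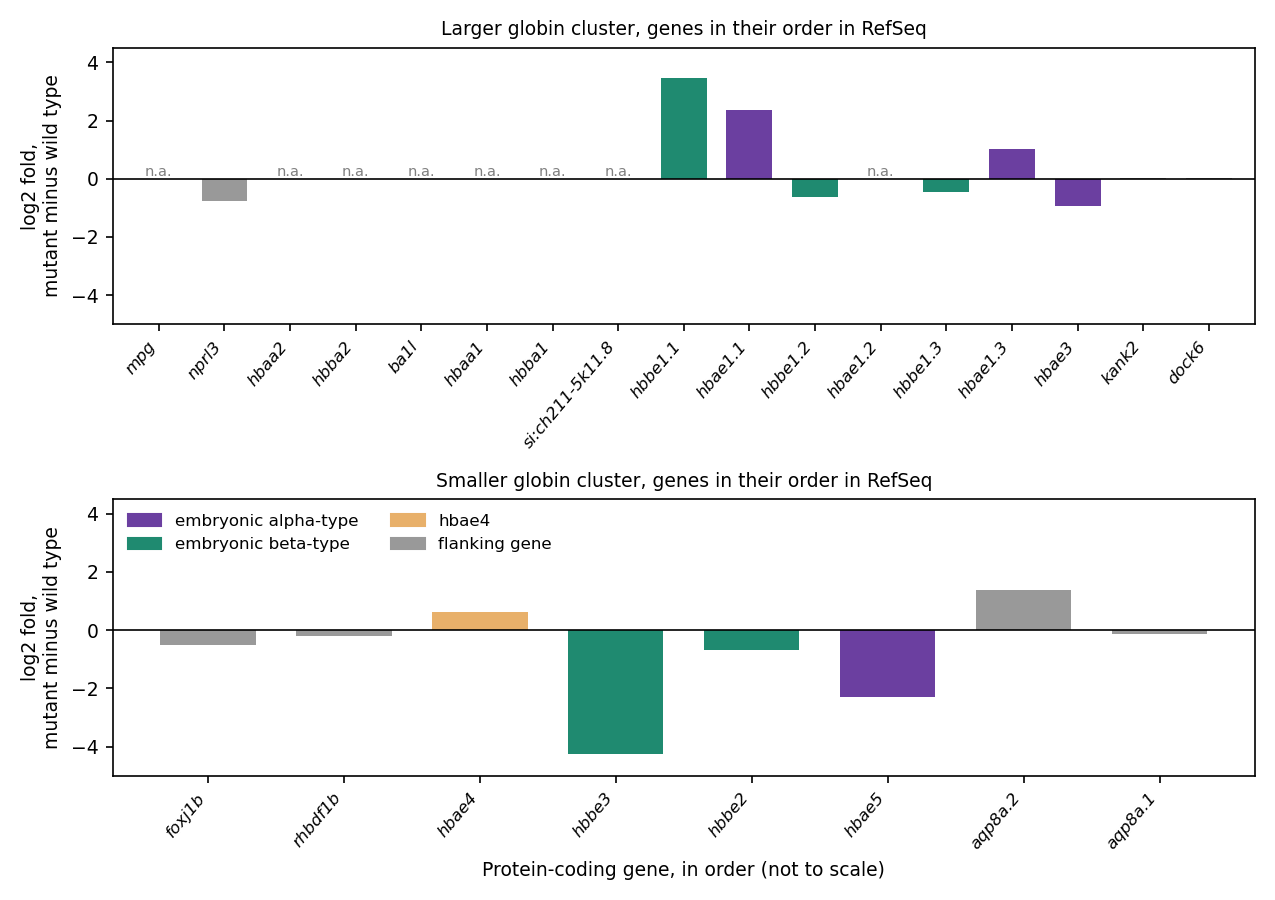
Log2 fold of translation efficiency, mycn mutant minus wild type, for the protein-coding genes of the larger (top) and smaller (bottom) globin cluster in their RefSeq order, with pairs of flanking genes; distances are not to scale and n.a. marks a gene without a tested value. In the larger cluster hbbe1.1 and hbae1.1 stand at 3.46 and 2.37 and hbae3 at -0.94, and in the smaller cluster hbbe3, hbbe2 and hbae5 stand at -4.27, -0.68 and -2.29.

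The precision of the ratios differed among the 9 genes. None was at 0 in any library. Where several genes of a library had the same ratio to 9 significant digits, the ratio was taken to come from small read numbers, and 13 of the 36 globin values were shared in this way, in 6 genes. Sharing was common in the table, at 67.1% and 67.0% of the values above 0 in the mutant libraries, against 64.7% and 66.9% in the wild-type libraries. All 4 values of hbbe3 were shared, with 13 and 24 other genes in mutants and with 8 and 92 in wild type. All 4 values of hbae5 were shared too, with 16 and 110 other genes in mutants and with 6 and 5 in wild type. The lowered genes with the widest differences, hbbe3 and hbae5, thus had values of this kind in every library. By contrast, hbbe1.1, hbae3 and hbbe1.2 shared no value in any library. For hbae1.1 the mutant values were not shared, and 1 of its wild-type values was shared with 4 other genes. Both wild-type values of hbae1.3 were shared, each with 1 other gene. For hbbe1.3 the value of wild-type replicate 2 was shared with 97 other genes. For hbbe2 the value of mutant replicate 1 was shared with 1 other gene. Outside the 9 genes, hbae4 had shared values in every library, with 18 and 33 other genes in mutants and with 26 and 91 in wild type. The flanking genes nprl3, aqp8a.2 and aqp8a.1 had shared values in every library too.

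The symbols of several of these genes have been used for more than one copy. In RefSeq hbbe1.1 and hbbe1.2 share the older symbol bE1, hbae1.3 and hbae1.2 share a clone-based name, and hbae5 and hbae4 share the older symbol hbz. How the authors counted reads that match several copies is not stated in the labels or the table, so the division of reads between hbbe1.1, hbbe1.2 and hbbe1.3, and between hbae1.1 and hbae1.3, is uncertain. Its part in the opposite differences of the copies was not tested.

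Replicates of the 9 genes differed by 1.01-fold, for hbae3 in mutants, to 3.28-fold, for hbae5 in mutants. The median replicate difference over the 17601 genes was 1.28-fold in mutants and 1.27-fold in wild type. Against these, hbae1.1 and hbae1.3 both differed by 1.36-fold between the mutant replicates, with mutant replicate 2 the higher for each. In wild type both were higher in replicate 1, hbae1.1 by 1.18-fold and hbae1.3 by 1.61-fold.

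Across all 17601 genes, no gene passed limma's test at an adjusted p of 0.05 (0.0% called), and 2023 (11.5%) had an unadjusted p under 0.05. The fitted log2 fold was above 0 in 51.3% of the genes and below 0 in 48.7%. A log2 fold at least as high as the 3.46 of hbbe1.1 was found in 9 genes (0.0511%), counting hbbe1.1 itself, and one at least as high as the 2.37 of hbae1.1 in 64 genes (0.364%). At the other end, 5 genes (0.0284%) had a log2 fold as low as the -4.27 of hbbe3, and 32 genes (0.182%) one as low as the -2.29 of hbae5. The median log2 fold of the 9 globins was -0.63, against 0.013 over all tested genes. These places describe the genes, which were chosen for their differences.

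**Figure D3:**
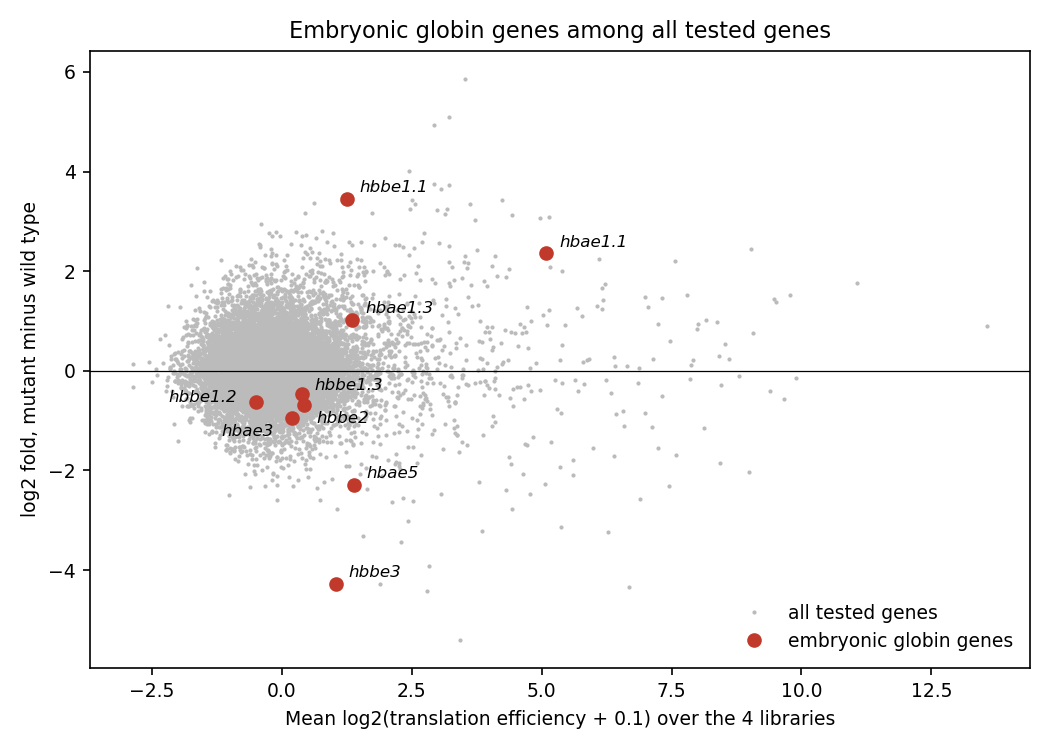
Log2 fold of translation efficiency, mycn mutant minus wild type, against the mean log2(translation efficiency + 0.1) over the 4 libraries, with the 17601 tested genes in grey and the 9 embryonic globins in red. At the edges of the cloud lie hbbe1.1 at 3.46, hbae1.1 at 2.37, hbae5 at -2.29 and hbbe3 at -4.27, and the other 5 globins lie within it.

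The genes most like the most shifted globins were sought among 2623 genes with no shared value, by the distance of the log2 values over the 4 libraries after centring each gene. Nearest to hbbe1.1 was CU984600.2, at a distance of 1.05 on the log2 scale, with a translation efficiency of 1225 and 1229 in mutants, against 239.6 and 210.8 in wild type. FP565451.1 and si:dkey-91i10.3 followed, at distances of 1.25 and 1.39. Nearest to hbbe3 was si:ch211-113a14.12, at a distance of 0.66, with 21.0 and 24.4 in mutants, against 467.3 and 449.1 in wild type. It was followed by tlr1, a Toll-like receptor gene, at 1.78, and zgc:113983 at 2.08. Such a search picks genes with differences in the same direction. The levels of those nearest to hbbe3 were far above those of the globin itself in every library. Those nearest to hbbe1.1 also lay above it in every library, and their log2 folds, 2.11 to 2.45, were smaller than its 3.46.

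Other genes of the red cell were described from lists drawn up with earlier results of these data known, and none of their genes passed the test over all genes. Of 6 other globins in the table, 3 were higher and 3 lower in mutants (median log2 fold 0.22, or 0.071 after quantile normalization). Among those with no shared value only myoglobin remained, at 0.55. Groups did not overlap for 3 that were higher (50.0%) and 1 that was lower (16.7%), against 23.1% and 21.6% of all tested genes. Myoglobin, mb, the oxygen store of muscle, was at 4.53 and 5.02 in mutants, against 2.88 and 3.62 in wild type (log2 fold 0.55, limma adjusted p = 0.486). Globin X, xgb, was at 3.13 and 7.69 in mutants, against 1.298 and 0.881 in wild type (log2 fold 2.10, limma adjusted p = 0.341), and all 4 of its values were shared with at least 48 other genes. Of the cytoglobin genes, cygb1 had a log2 fold of -0.10 with overlapping groups and cygb2 one of -0.55 without overlap. Neuroglobin, ngb, the globin of neurons, had a log2 fold of -0.59 with overlapping groups. The remaining globin of the list was hbae4, given above with the smaller cluster, and it was 1 of the 3 that were higher without overlap.

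Of 20 tested erythroid transcription factors, 9 were higher and 11 lower in mutants (median log2 fold -0.079). In 3 of them (15.0%) the mutant libraries lay above the wild-type libraries and in 9 (45.0%) below, against 23.1% and 21.6% of all tested genes. The factors gata1b and gfi1b were at 0 in a library and were not tested. Gata1b was at 12.5 and 15.4 in mutants, against 3.89 and 0 in wild type, and gfi1b had overlapping groups. The values of gata1b above 0 were each shared with at least 31 other genes. Klf17, a Krüppel-like factor of the fish hatching gland and primitive blood, had the smallest p of the list, at 0.353 and 0.217 in mutants, against 1.80 and 2.64 in wild type (log2 fold -2.59, limma adjusted p = 0.212). Gata1a, the master regulator of red cell genes, was at 1.02 and 0.832 in mutants, against 1.86 and 1.69 in wild type (log2 fold -0.88, limma adjusted p = 0.338). In the other direction nfe2, which binds globin regulatory regions in mammals, was at 2.03 and 2.08 in mutants, against 1.04 and 0.944 in wild type (log2 fold 0.98, limma adjusted p = 0.295). The repressor gene gfi1aa was at 3.58 and 8.79 in mutants, against 1.39 and 1.13 in wild type (log2 fold 2.08, limma adjusted p = 0.334). All 4 of these factors had shared values in every library. The median of the list stayed below 0 when 1 library was left out, between -0.041 without wild-type replicate 2 and -0.17 without wild-type replicate 1. It was 0.10 over myb and hmga1a, the only factors with no shared value.

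Proteins of the red cell membrane and cytoplasm were divided evenly, with 13 of 26 tested genes higher in mutants and 13 lower (median log2 fold 0.0016). Groups did not overlap in 9 genes (34.6%) of each direction, against 23.1% higher and 21.6% lower among all tested genes. The anion exchanger slc4a1a, the band 3 protein of the membrane, was at 0.605 and 0.435 in mutants, against 1.04 and 0.929 in wild type (log2 fold -0.82, limma adjusted p = 0.365). The Rh family gene rhd was at 0.747 and 0.689 in mutants, against 1.22 and 1.32 in wild type (log2 fold -0.74, limma adjusted p = 0.348). Higher values were found for hemgn, the nuclear protein hemogen of blood progenitors, at 2.04 and 2.10 in mutants, against 0.786 and 1.25 in wild type (log2 fold 0.99, limma adjusted p = 0.367). For fbxo7, a ubiquitin ligase subunit, they were 1.62 and 1.63 in mutants, against 0.811 and 0.996 in wild type (log2 fold 0.79, limma adjusted p = 0.350). Both rhd and fbxo7 had shared values in every library. The median of the list changed sign with the library left out. It was -0.037 without mutant replicate 1, 0.099 without mutant replicate 2, 0.068 without wild-type replicate 1, and -0.036 without the other wild-type library.

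Heme synthesis and iron handling, which supply the group that globin chains bind, had 15 of 32 tested genes higher in mutants and 17 lower (median log2 fold -0.045). Groups did not overlap in 9 genes (28.1%) of each direction, against 23.1% higher and 21.6% lower among all tested genes. The heme oxygenase hmox2a, which breaks heme down, was at 0.363 and 0.414 in mutants, against 0.767 and 0.790 in wild type (log2 fold -0.85, limma adjusted p = 0.316). The iron transporter slc11a2 was at 0.787 and 0.673 in mutants, against 1.19 and 1.12 in wild type (log2 fold -0.60, limma adjusted p = 0.402). Aco1, the cytosolic aconitase that doubles as an iron-responsive RNA-binding protein, was at 2.37 and 2.35 in mutants, against 1.35 and 1.45 in wild type (log2 fold 0.71, limma adjusted p = 0.359). Abcb10, a mitochondrial transporter of developing red cells, was at 0.637 and 0.978 in mutants, against 0.471 and 0.426 in wild type (log2 fold 0.70, limma adjusted p = 0.446). Its values were shared with other genes in every library. The median of the list turned to 0.11 without mutant replicate 2 and was -0.21 without mutant replicate 1. The log2 folds of these lists thus lay between -2.59 and 2.10, whereas those of the 9 embryonic globins, chosen for their differences, ran from -4.27 to 3.46.

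**Figure D4:**
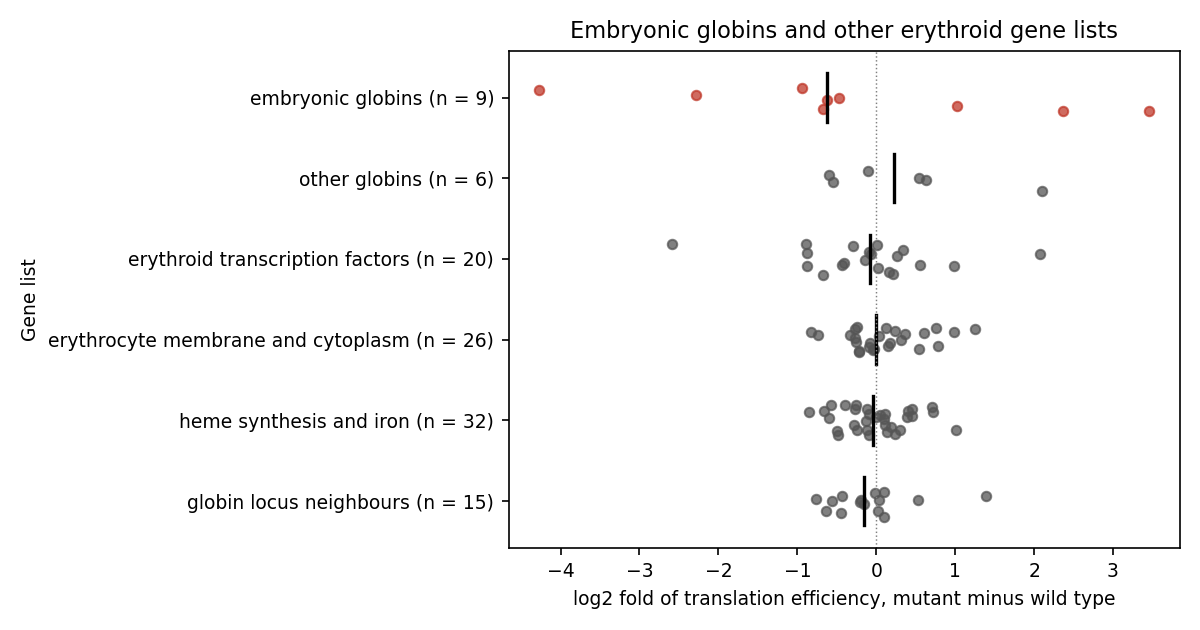
Log2 fold of translation efficiency, mycn mutant minus wild type, for the 9 embryonic globins (red) and the tested genes of the other lists (grey), with the median of each list as a black bar. The embryonic globins run from -4.27 to 3.46 with a median of -0.63, and the medians of the other lists lie between -0.15 and 0.22.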

How the data were processed

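The deposited table holds ratios, the translation efficiency of each gene in each of 4 Ribo-seq libraries, which the authors derived from FPKM values per the file headers. The RNA-seq sample behind each denominator is not stated, nor is a filter. STAR, featureCounts and limma are named with the build GRCz11 per the submitters' processing notes, without versions. Genes above 0 in all 4 libraries (17601) were fitted with limma 3.58.1 in R 4.3.3 on log2(ratio + 0.1), empirical Bayes with trend. The contrast was mutant minus wild type, two-sided, Benjamini-Hochberg adjusted over all of them, with 2 residual degrees of freedom. The p-values set the genotype difference against the spread between these libraries, which may be technical. Where both libraries of a genotype had the same RNA-seq denominator, that spread leaves out the error of the mRNA value. This holds for every gene, and for the shares of genes without overlap. The fit was also run on simulated data with independent noise in each library. Those data did not model an error common to a genotype, or ratios from small read numbers, so they are no check on either. The ratio of 2 genotype means is on the linear scale. The embryonic globins, the lists and the tests were chosen with earlier results of these data known. The text names all 9 globins, all other globins in the table, the 4 genes of each other list with the smallest p, and the 3 nearest genes of the most raised and most lowered globin; kank2 and aqp8a.1 were added as neighbours after their values were seen. All 9 globin symbols matched RefSeq symbols and 5 matched Ensembl symbols. Alternatives were other pseudocounts, scalings, filters and a replicate block, and leaving out each library.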

Additional observations from a re-analysis of the deposited data

How the results depend on the processing

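All 9 embryonic globins kept the sign of their log2 fold under every alternative they entered. Since their groups did not overlap, only a change of scaling could have reversed a sign, and the other alternatives are no check of it. In size, 91 of 102 refits moved the log2 fold by no more than 1 SD between replicates. Most of these could not have moved it further, so the count is no measure of stability. Changes of filter, trend or block leave the log2 fold of a gene as it was, and leaving out 1 of 2 libraries cannot shift it beyond that SD. The 11 refits that moved further all used another pseudocount or quantile normalization. The largest shifts came with a pseudocount of 1, which reduced the size of both widest differences, hbbe1.1 from 3.46 to 2.44 and hbbe3 from -4.27 to -2.87. All 3 higher and 6 lower globins kept groups without overlap after centring the libraries on their medians and after quantile normalization. The other alternatives could not make the groups overlap, so they are no check of this. Among genes with no shared value only 1 higher and 2 lower globins remained to be counted. In place of 0 genes past the threshold, 6 passed with a pseudocount of 1, 177 with zeros kept and 36 among the 2626 genes with no shared value; 0 passed without any 1 of the 4 libraries. The genotypes share replicate numbers in the labels, but same-numbered libraries did not deviate together (correlation 0.0097 over 17601 genes). With a replicate block 0 genes passed, and 1920 in place of 2023 had an unadjusted p under 0.05. No gene of the red cell and neighbour lists passed under any alternative. Among genes with no shared value the list medians were -0.086 for the red cell membrane and 0.0043 for heme and iron, and after quantile normalization -0.063 and -0.11. Depth is unknown, so no counting error can be given for any ratio.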

Other observations

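Markers of other blood and vessel cells were looked up in the same fit, and none passed the test over all genes. Of 8 tested thrombocyte markers, 5 were higher in mutants and 3 lower (median log2 fold 0.34). That median was 0.13 without mutant replicate 2 and -0.17 over f5 and thbs1b, the only markers with no shared value. Nfe2, given above among the erythroid factors, had the smallest p. The integrin gene itgb3b was at 1.85 and 1.71 in mutants, against 1.25 and 1.201 in wild type (log2 fold 0.50, limma adjusted p = 0.453), and the coagulation factor gene f5 at 1.87 and 1.94 in mutants, against 2.58 and 2.95 in wild type (log2 fold -0.51, limma adjusted p = 0.473). The integrin itga2b, the defining marker of fish thrombocytes, had overlapping groups, at 6.26 and 15.4 in mutants and 6.49 and 4.40 in wild type. Each value of itga2b was shared with at least 43 other genes, and itgb3b had shared values in every library too.

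Of 18 tested leukocyte markers, 10 were higher in mutants and 8 lower (median log2 fold 0.17). That median was 0.38 when mutant replicate 2 was left out, 0.11 when wild-type replicate 2 was left out, and 0.062 after quantile normalization. It could not be given over markers with no shared value, since every tested marker shared a value in some library. The markers grn1 and mmp13a were at 0 in some library and were not tested. Grn1 was at 0 and 0 in mutants, against 4.17 and 5.66 in wild type, both shared with other genes, and mmp13a had overlapping groups. The cytokine gene il1b was at 4.17 and 5.13 in mutants, against 1.62 and 1.101 in wild type (log2 fold 1.72, limma adjusted p = 0.278), and the signalling chain fcer1gl at 2.32 and 2.28 in mutants, against 0.562 and 1.02 in wild type (log2 fold 1.48, limma adjusted p = 0.316). The macrophage gene mpeg1.1 was at 0.556 and 0.228 in mutants, against 1.11 and 0.967 in wild type (log2 fold -1.29, limma adjusted p = 0.388), and the matrix metalloproteinase gene mmp9 at 0.512 and 0.450 in mutants, against 0.875 and 1.04 in wild type (log2 fold -0.86, limma adjusted p = 0.330). The genes il1b, fcer1gl, mpeg1.1 and mmp9 had shared values in every library, and each value of il1b was shared with at least 95 other genes.

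Of 19 tested endothelial markers, 11 were higher in mutants and 8 lower. Their median log2 fold of 0.014 was -0.14 when wild-type replicate 2 was left out, -0.065 when wild-type replicate 1 was and 0.13 when mutant replicate 1 was. It was -0.016 after quantile normalization. Among markers with no shared value only stab1 remained, at 0.47. The vascular gene plvapb was at 0.530 and 0.624 in mutants, against 0.973 and 1.21 in wild type (log2 fold -0.81, limma adjusted p = 0.355). The endothelial cadherin cdh5 was at 1.56 and 1.31 in mutants, against 0.983 and 1.09 in wild type (log2 fold 0.43, limma adjusted p = 0.530). The transcription factor gene etv2 was at 0.913 and 0.321 in mutants, against 1.32 and 1.43 in wild type (log2 fold -1.17, limma adjusted p = 0.478). For sox18 the values were 0.110 and 0.405 in mutants, against 0.499 and 0.790 in wild type (log2 fold -1.17, limma adjusted p = 0.507). Both etv2 and sox18 had shared values in every library.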
